A study of Mus musculus with 64 samples.

Results

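The genes of the mitochondrial ribosome's proteins were taken as the protein-coding entries of the deposited mouse expression table whose symbol is Mrpl or Mrps followed by a digit. This rule found 77 genes among 23134. All 77 passed the filter on low values, which kept 16140 genes. Of the 77, 47 carry an Mrpl symbol, named for the large subunit, and 30 an Mrps symbol, named for the small subunit. They lie on 17 chromosomes.

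The mitochondrial ribosome translates the few mRNAs of the mitochondrial genome, which encode core subunits of the respiratory chain and of ATP synthase. Its ribosomal RNAs come from mitochondrial DNA, whereas its proteins are made in the cytosol from nuclear genes and imported. T cells are known to build up mitochondria when they are activated, and mitochondrial translation is needed for their growth and effector function.

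RNA came from CD4 T cells of the spleen (C57BL/6J mice) in 4 genotypes, all carrying Cd4-Cre-ERt2, a Cre recombinase expressed under Cd4 control and switched on by tamoxifen. DKO cells were Rc3h1/2 fl/fl and were made to lose the RNA-binding proteins Roquin-1 and Roquin-2. KO cells were Zc3h12a fl/fl and were made to lose the RNase Regnase-1. TKO cells were floxed at all 3 genes, and WT cells carried the Cre alone. All cells, WT included, received 4-OH-tamoxifen, were activated by antibodies to CD3 and CD28 in Th1 conditions for 40 h and were kept for 2 days with IL-2. They were taken without further stimulation (0 h) or after 1, 2 or 4 h of renewed stimulation through CD3 and CD28, called restimulation here. Each of the 16 groups had 4 libraries, named here by their place in the deposited list. Nothing in the labels says that the 4 were separate mice or cultures, so every p-value rests on library-to-library spread that could be technical.

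Levels are in CPM, a gene's reads relative to all reads of its library, after rescaling between libraries. Changes are log2 differences of group means ± SE, tested with limma across all genes kept. "Rose", "fell" and "called" mean a Benjamini-Hochberg adjusted p under 0.05. Libraries held 5369873 to 11666566 reads, and the 10 most abundant loci took 26.6% to 38.1% of them. In 13 of the 16 groups the library with the largest such share also had the highest summed level of the 77 genes. Zc3h12a had 69.7 ± 14.2 CPM in KO and 59.7 ± 4.68 CPM in TKO cells at 1 h, against 114 ± 14.8 CPM in WT cells (SD, n = 4 each). Rc3h1 had 67.2 ± 2.59 CPM in DKO and 76.8 ± 7.70 CPM in TKO cells at 4 h, against 151 ± 8.16 CPM in WT cells. Rc3h2 had 80.4 ± 9.16 CPM in DKO and 101 ± 15.1 CPM in TKO cells at 4 h, against 69.6 ± 12.2 CPM in WT cells, so its total level does not check the labels. All 10 CD4 T cell markers were present, with summed levels of 1794 to 2407 CPM in WT cells at 0 h.

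Promoter windows of 8 genes that the results turn on are shown because members' windows hold some letter patterns more often than other windows do. RefSeq windows on GRCm38.p6, from 250 bases before to 50 bases after the start annotated in RefSeq, were matched for 67 of the 77 members. Gene coordinates given further below come from GENCODE vM21, whose starts can differ. Each is written 5′ to 3′ in the direction of its gene, and capitals mark the letters searched for NRF1 (GCGCATGCG), ETS factors (CCGGAAG) or YY1 (AAGATGGCG), on either strand. The windows of Mrps18b and Mrpl50 are on the minus strand and the others on the plus strand. They lie at chr16:92058086-92058385 for Mrps6, chr11:97315466-97315765 for Mrpl45, chr17:35916391-35916690 for Mrps18b, chr11:97041332-97041631 for Mrpl10, chr11:58171414-58171713 for Mrpl22, chr13:99344536-99344835 for Mrps27, chr4:49521034-49521333 for Mrpl50 and chr11:120484387-120484686 for Mrpl12.
Mrps6: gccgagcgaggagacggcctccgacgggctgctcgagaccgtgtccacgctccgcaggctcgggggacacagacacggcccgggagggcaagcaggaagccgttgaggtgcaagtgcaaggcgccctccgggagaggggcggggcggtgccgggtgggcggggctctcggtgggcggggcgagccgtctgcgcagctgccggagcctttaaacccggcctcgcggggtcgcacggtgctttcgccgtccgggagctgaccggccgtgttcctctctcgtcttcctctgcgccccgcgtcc
Mrpl45: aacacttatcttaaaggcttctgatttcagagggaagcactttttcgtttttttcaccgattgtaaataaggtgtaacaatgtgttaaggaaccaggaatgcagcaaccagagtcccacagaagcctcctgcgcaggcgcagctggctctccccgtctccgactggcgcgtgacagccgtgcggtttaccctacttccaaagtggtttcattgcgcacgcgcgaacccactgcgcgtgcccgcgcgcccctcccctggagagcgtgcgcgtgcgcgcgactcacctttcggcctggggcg
Mrps18b: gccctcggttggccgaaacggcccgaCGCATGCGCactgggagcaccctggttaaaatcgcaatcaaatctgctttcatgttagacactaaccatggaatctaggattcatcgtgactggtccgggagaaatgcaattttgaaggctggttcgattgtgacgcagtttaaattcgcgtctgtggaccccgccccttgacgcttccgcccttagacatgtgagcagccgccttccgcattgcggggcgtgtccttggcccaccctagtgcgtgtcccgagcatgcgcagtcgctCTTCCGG
Mrpl10: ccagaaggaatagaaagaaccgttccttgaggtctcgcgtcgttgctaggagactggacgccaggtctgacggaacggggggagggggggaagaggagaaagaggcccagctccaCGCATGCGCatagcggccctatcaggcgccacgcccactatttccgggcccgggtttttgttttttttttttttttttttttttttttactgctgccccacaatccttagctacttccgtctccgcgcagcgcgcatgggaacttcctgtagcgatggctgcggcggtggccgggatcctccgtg
Mrpl22: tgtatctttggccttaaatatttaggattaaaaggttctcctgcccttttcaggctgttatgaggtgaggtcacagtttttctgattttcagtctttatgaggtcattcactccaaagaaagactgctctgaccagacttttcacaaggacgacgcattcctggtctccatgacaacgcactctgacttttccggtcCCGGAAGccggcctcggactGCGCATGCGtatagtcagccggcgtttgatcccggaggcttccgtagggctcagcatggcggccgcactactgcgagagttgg
Mrps27: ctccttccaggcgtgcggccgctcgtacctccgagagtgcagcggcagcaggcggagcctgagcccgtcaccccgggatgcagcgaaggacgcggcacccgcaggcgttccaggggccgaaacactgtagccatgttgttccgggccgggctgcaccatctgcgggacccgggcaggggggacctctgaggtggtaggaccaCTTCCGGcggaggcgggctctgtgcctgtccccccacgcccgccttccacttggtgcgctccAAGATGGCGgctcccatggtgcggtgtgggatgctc
Mrpl50: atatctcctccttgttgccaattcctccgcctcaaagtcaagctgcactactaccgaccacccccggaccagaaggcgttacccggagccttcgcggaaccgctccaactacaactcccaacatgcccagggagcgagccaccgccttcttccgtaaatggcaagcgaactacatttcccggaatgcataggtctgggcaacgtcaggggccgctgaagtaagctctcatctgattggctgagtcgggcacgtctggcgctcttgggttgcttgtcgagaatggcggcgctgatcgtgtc
Mrpl12: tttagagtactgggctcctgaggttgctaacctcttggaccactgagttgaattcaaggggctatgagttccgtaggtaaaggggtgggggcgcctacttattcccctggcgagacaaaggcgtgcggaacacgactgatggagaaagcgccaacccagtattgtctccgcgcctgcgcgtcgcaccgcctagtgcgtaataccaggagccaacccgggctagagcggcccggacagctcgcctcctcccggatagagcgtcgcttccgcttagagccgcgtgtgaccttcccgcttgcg

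NRF1 is known for activating nuclear genes of mitochondrial function. Its letters stood in 7 of 67 member windows (10.4%), against 1.81% of all 27025 windows. These 27025 windows were not limited to the 16140 genes kept, whereas all members were kept, so the shares compare unlike sets. The ETS letters, a core bound by GABP among others, stood in 23 member windows (34.3%), against 9.12% of all windows. The YY1 letters stood in 8 member windows (11.9%), against 1.49% of all windows. The E-box CACGTG, bound by MYC among others, stood in 5 member windows (7.46%), against 7.24% of all windows. Of 63 windows of cytosolic ribosomal protein genes, 3.17% held the NRF1, 38.1% the ETS, 6.35% the YY1 letters and 7.94% the E-box. None of the 4 letter strings contains another, and a match is a description of letters only. Windows of Mrps18b and Mrpl22 hold both NRF1 and ETS letters, Mrps27 holds ETS and YY1 letters, Mrpl10 holds NRF1 letters, and Mrps6, Mrpl45, Mrpl50 and Mrpl12 hold none of the 4.

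By 4 h of restimulation most of the 77 genes had risen in WT cells. At 1 h 12 of 77 rose and 2 fell, where 18.7% of all genes tested rose and 12.5% fell. At 2 h 36 rose and 3 fell, where 26.5% of all genes rose and 25.5% fell. At 4 h 43 rose and 5 fell, where 24.7% of all genes rose and 27.1% fell. The members' median change was 0.09, 0.38 and 0.53 at 1, 2 and 4 h, and the median over all genes -0.10, -0.16 and 0.01. Other scalings moved the 1 h split to 21 higher and 2 lower (the authors' scaling) or 4 higher and 19 lower (upper quartile), and the 2 h split to 30 and 12 (upper quartile). At 4 h the median member stood 0.52 above the median gene. In bulk RNA, fewer cells of a type and less RNA per cell cannot be told apart.

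The steps within the time course were compared next. At 2 h against 1 h, 39 members rose and 1 fell, with a median change of 0.43, where 16.6% of all genes rose and 18.9% fell. At 4 h against 2 h, 6 rose and 2 fell, with a median change of 0.10, where 9.29% of all genes rose and 19.1% fell. This later count was 22 higher and 0 lower under upper-quartile scaling and 11 higher and 1 lower under median-of-ratios scaling, and 2 to 5 rose when 1 library was left out. In all, 46 members rose at 1 or more times (33.4% of all genes did), 34 rose at both 2 and 4 h (3302 of 16140 genes) and 11 at all 3 times (12.2%). The WT mean was highest at 0 h for 9 members, at 1 h for 4, at 2 h for 23 and at 4 h for 41. The time of the highest mean was not counted over all genes. At 4 h 16 members had risen by more than 1 on the log2 scale, as had 11.8% of all genes.

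Summed over the 77 genes, WT libraries had 1132 ± 194 CPM at 0 h, 1323 ± 98.4 CPM at 1 h, 1862 ± 223 CPM at 2 h and 1846 ± 86.9 CPM at 4 h (SD, n = 4 each). Without Mrps6, whose exons overlap another gene, the sums were 1114 ± 191, 1181 ± 116, 1605 ± 219 and 1671 ± 95.04 CPM. Markers of other cells moved over the same time. In WT cells the 7 B cell markers summed to 13.6 to 26.1 CPM at 4 h, against 113 to 234 CPM at 0 h. Of the 5 kept, 2 fell, Ighm (-3.32) and Cd79b (-1.67), while Ms4a1 and Cd79a did not pass the filter on low values. The 5 myeloid markers summed to 20.96 to 27.6 CPM at 4 h, against 34.4 to 51.0 CPM at 0 h. Of the myeloid genes listed, only Itgam, Ctss and Fcgr3 were kept, and Ctss fell (-0.77). Lyz2, Csf1r, Cd14 and Adgre1 were not kept, which limits the myeloid sums here and below. The 10 CD4 T cell markers summed to 1377 to 1438 CPM at 4 h, against 1794 to 2407 CPM at 0 h, and 6 of them fell, led by Lck at -1.58. Their sums had first been higher, at 2470 to 2782 CPM at 1 h and 2133 to 2639 CPM at 2 h. Cd5 (1.10 and 1.16) and Cd247 (0.97 and 0.77) rose at 1 and 2 h, while Cd28 (-0.75) and Cd4 (-0.40) fell at 2 h. CD8 markers summed to 4.92 to 17.5 CPM at 4 h, against 3.43 to 16.4 CPM at 0 h, and erythroid and platelet markers to 0.985 to 2.44 CPM at 4 h, against 1.04 to 5.03 CPM at 0 h. The part of these shifts in the members' change was not tested.

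**Figure D1:**
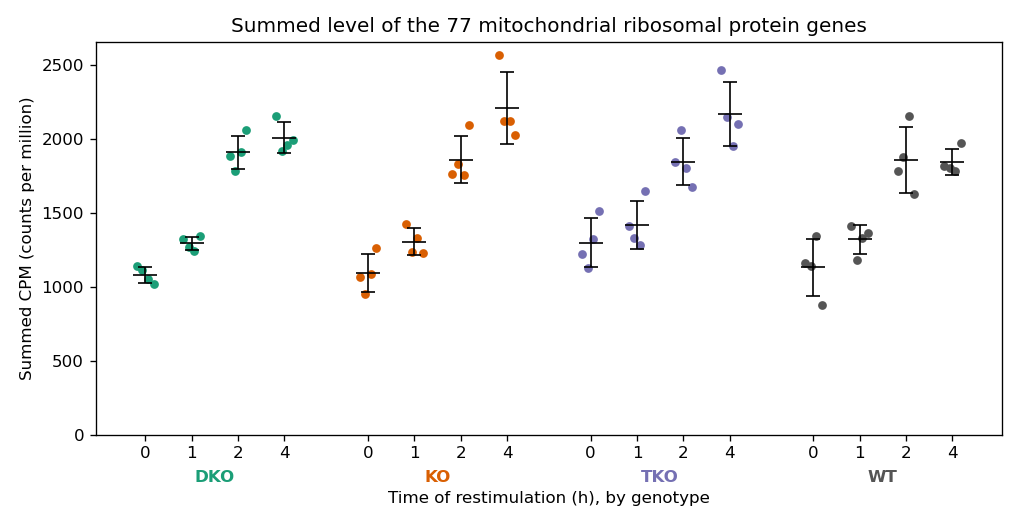
Summed level of the 77 genes in CPM, by genotype and hours of restimulation. Points are single libraries and bars the mean ± SD of 4 libraries. The means at 4 h are 2009.5 CPM in DKO, 2209.5 CPM in KO and 2169 CPM in TKO cells, against 1846 CPM in WT cells, and every genotype is lowest at 0 h.

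Genes named for each subunit were among those that rose. The split is by symbol, and the Mrps genes include Mrps18a and Mrps30, found in the large subunit, and Mrps36, now assigned elsewhere. At 4 h 26 of 47 Mrpl genes rose and 4 fell (median 0.52), and 17 of 30 Mrps genes rose and 1 fell (median 0.56). At 2 h 21 Mrpl genes rose and 3 fell (median 0.35), and 15 Mrps genes rose and 0 fell (median 0.43). Symbols up to Mrpl36 and Mrps21 follow the numbering of bacterial ribosomal proteins, and higher numbers were given mostly to proteins without a bacterial counterpart. Of 44 members in the bacterial range 25 rose and 5 fell at 4 h (median 0.54), and of the 33 beyond it 18 rose and 0 fell (median 0.52). Of the 38 members with the lowest mean CPM 14 rose and 2 fell (median 0.36), and of the 39 with the highest 29 rose and 3 fell (median 0.68). The differences between these groups of members were not tested.

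Among large subunit genes, Mrpl38 encodes a mitochondria-specific protein of the central protuberance. It had 24.5, 25.2, 22.8 and 26.2 CPM in WT libraries at 4 h, against 7.28, 7.51, 6.33 and 5.09 CPM at 0 h. All libraries at 4 h were above all at 0 h. The change was 1.37 ± 0.19 at 2 h and 1.91 ± 0.19 at 4 h (limma adjusted p = 1.08e-12).

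Mrpl50 encodes another mitochondria-specific protein. It had 39.7, 40.0, 42.3 and 38.05 CPM in WT libraries at 2 h and 32.3, 37.6, 35.1 and 30.6 CPM at 4 h, against 11.3, 10.2, 12.8 and 7.75 CPM at 0 h. No library at 2 or 4 h was as low as any at 0 h. The changes were 0.68, 1.94 and 1.70 at 1, 2 and 4 h, and that at 4 h had limma adjusted p = 1.18e-18. Mrpl47, the counterpart of bacterial L29 near the polypeptide exit, rose by 0.49, 1.41 and 1.57 at the 3 times. It shares 452 exon bases with Actl6a and 616 with Ndufb5, both on the opposite strand and with more reads than Mrpl47. Actl6a changed by 0.25, 0.56 and 0.41 at the 3 times and Ndufb5 by 0.50, 0.81 and 0.45. How far reads of these genes were mixed was not tested. Mrpl16, the counterpart of bacterial L16, rose by 0.79, 1.43 and 1.35.

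Mrpl12 forms the stalk that contacts translation factors, and Mrpl10 is its anchor on the ribosome. Mrpl12 had 52.5, 49.0, 44.4 and 58.3 CPM in WT libraries at 4 h, against 21.8, 20.6, 24.8 and 8.85 CPM at 0 h. The groups did not overlap, and it rose by 1.51 ± 0.24 (limma adjusted p = 2.92e-07). Mrpl10 had 16.1, 17.2, 15.1 and 16.2 CPM at 4 h, against 21.8, 21.4, 23.1 and 17.7 CPM at 0 h. It fell by 0.37 ± 0.13 without overlap (limma adjusted p = 0.015), so these partners moved in opposite directions. The Mrpl10 call was lost under the authors' scaling (-0.27) and without WT library 3 at 0 h (-0.32).

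Mrpl14, the counterpart of bacterial L14 at the subunit interface, was lower after restimulation. It had 4.27, 5.30, 4.33 and 6.70 CPM in WT libraries at 4 h, against 8.97, 7.76, 10.4 and 6.97 CPM at 0 h. All libraries at 4 h were below all at 0 h. It fell by 0.81 ± 0.19 at 2 h and 0.72 ± 0.19 at 4 h (limma adjusted p = 0.000832). Mrpl14 shares 106 exon bases with Tmem63b on the opposite strand, which changed by -0.29 ± 0.21. Whether the counting used strand is not given in what was available, so reads of such pairs may be mixed. In the knockouts Mrpl14 changed by -0.41 in DKO, -0.29 in KO and -0.24 in TKO cells, none of them called.

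The other members that fell in WT cells at 4 h had overlapping groups. They were Mrpl18 (-0.72), the counterpart of bacterial L18, Mrpl4 (-0.53) and Mrps21 (-0.41). Mrpl18 shares 141 exon bases with Tcp1, a chaperonin subunit gene on the opposite strand, which changed by 0.68 ± 0.10. Mrpl27 fell by 0.61 at 2 h and shares 75 exon bases with Eme1 on the opposite strand. Eme1 changed by -1.61 ± 0.23 at 2 h and had 169% as many reads over all libraries. At 1 h Mrpl22 fell by 0.77 and Mrps35 by 0.62, and at 4 h their changes were 0.58 and 0.64.

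Among small subunit genes, Mrps18b had 30.1, 28.1, 24.7 and 27.1 CPM in WT libraries at 4 h, against 8.84, 9.93, 10.7 and 5.75 CPM at 0 h. The groups did not overlap, and it rose by 1.66 ± 0.14 (limma adjusted p = 6.24e-16). Mrps10, the counterpart of bacterial S10, rose by 1.25 at 2 h and 1.58 at 4 h. Mrps28 rose by 0.56, 1.37 and 1.51 at 1, 2 and 4 h. Mrps27, a pentatricopeptide repeat protein, rose by 1.28 at 2 h. Mrps9, the counterpart of bacterial S9, rose by 0.37, 0.81 and 0.53 at the 3 times.

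Bacterial S18 has 3 counterparts in mammals, of which Mrps18a sits in the large subunit and Mrps18b and Mrps18c are small subunit proteins. Their changes in WT cells at 4 h were 0.74 ± 0.13 for Mrps18a, 1.66 ± 0.14 for Mrps18b and -0.24 ± 0.21 for Mrps18c. Mrps18a rose at 2 and 4 h. Mrps18c was called at none of the 3 times, with 18.1, 14.9, 15.1 and 18.5 CPM at 4 h, against 18.5, 22.7, 23.7 and 14.8 CPM at 0 h, and its groups overlapped. Mrps30, named for the small subunit but found in the large one, rose by 0.41, 0.96 and 0.80 at 1, 2 and 4 h.

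Some members showed no called change in WT cells. Mrps12, at the decoding centre, changed by 0.36 ± 0.28 at 4 h. Mrps36, now assigned to the alpha-ketoglutarate dehydrogenase complex, changed by -0.13 ± 0.18. Mrps36-ps1, listed as protein-coding in the table and as a processed pseudogene in GENCODE vM21, changed by 0.30 ± 0.20, and reads could have been split between it and Mrps36. Mrpl33, the counterpart of bacterial L33, changed by -0.20 ± 0.11. Over all 4 genotypes, 8 members were called in none at 4 h against 0 h: Mrpl27, Mrpl34, Mrpl41, Mrpl48, Mrps14, Mrps16, Mrps18c and Mrps23. The share of all genes called in none was not counted, so this number has nothing to be set against.

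The lowest means over all 64 libraries were 2.70 CPM for Mrpl23, 5.27 CPM for Mrps12 and 5.47 CPM for Mrps36-ps1. Mrpl23 had 4 reads in its lowest library, and its rise of 0.77 ± 0.32 at 4 h came with overlapping groups (limma adjusted p = 0.0394). The highest means were 133 CPM for Mrps6, 49.6 CPM for Mrps9 and 45.1 CPM for Mrpl33. Per kilobase of exon these 3 had levels of 86.7, 8.61 and 6.16 CPM, against a median over the 77 of 6.89 CPM.

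**Figure D2:**
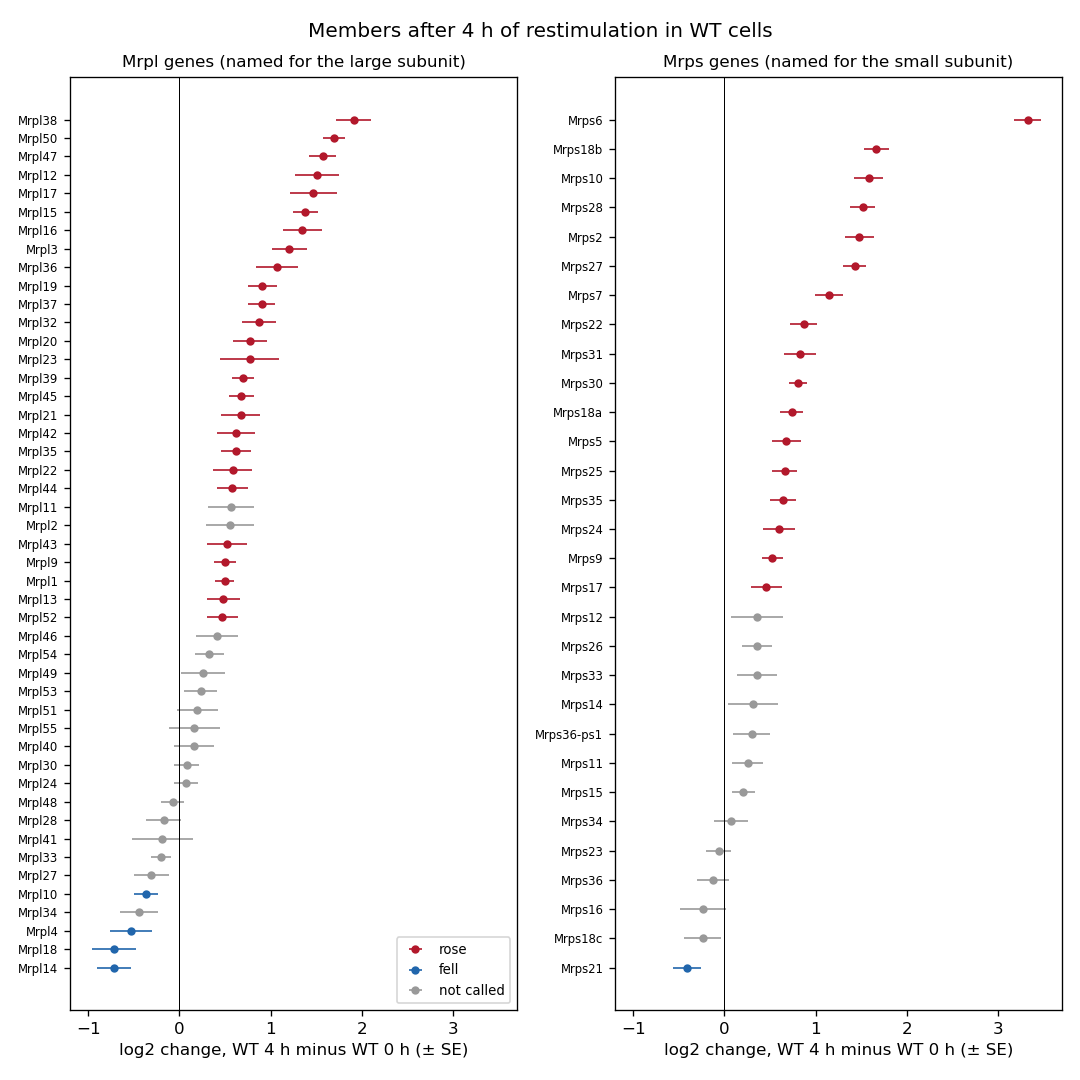
Change of each member in WT cells at 4 h against 0 h on the log2 scale with its standard error, Mrpl genes on the left and Mrps genes on the right. Red points rose, blue points fell and grey points were not called. Mrps6 stands apart at 3.32, 43 members rose and 5 fell.

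Mrps6, the counterpart of bacterial S6, had the largest change of the 77 at 1, 2 and 4 h in WT cells. In WT libraries it had 15.7, 16.2, 23.4 and 15.3 CPM at 0 h, 152, 173, 123 and 119 CPM at 1 h, 239, 214, 291 and 283 CPM at 2 h and 166, 167, 199.7 and 168 CPM at 4 h. Every restimulated library was above every library at 0 h. It rose by 3.002, 3.87 and 3.32 at 1, 2 and 4 h (SE 0.15 each), and the 4 h change had limma adjusted p = 4.35e-26. The gene lies on chromosome 16 at 92058270 to 92112227 on the plus strand (GRCm38). Slc5a3, the myo-inositol transporter gene, shares 159 exon bases with it on the same strand and rose by 3.15, 4.30 and 3.71. Over all libraries Slc5a3 had 81398 reads and Mrps6 67138, and the deposited values cannot tell how many of them belong to which gene. Without Mrps6, 42 of 76 members rose at 4 h and 5 fell (median 0.52).

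**Figure D3:**
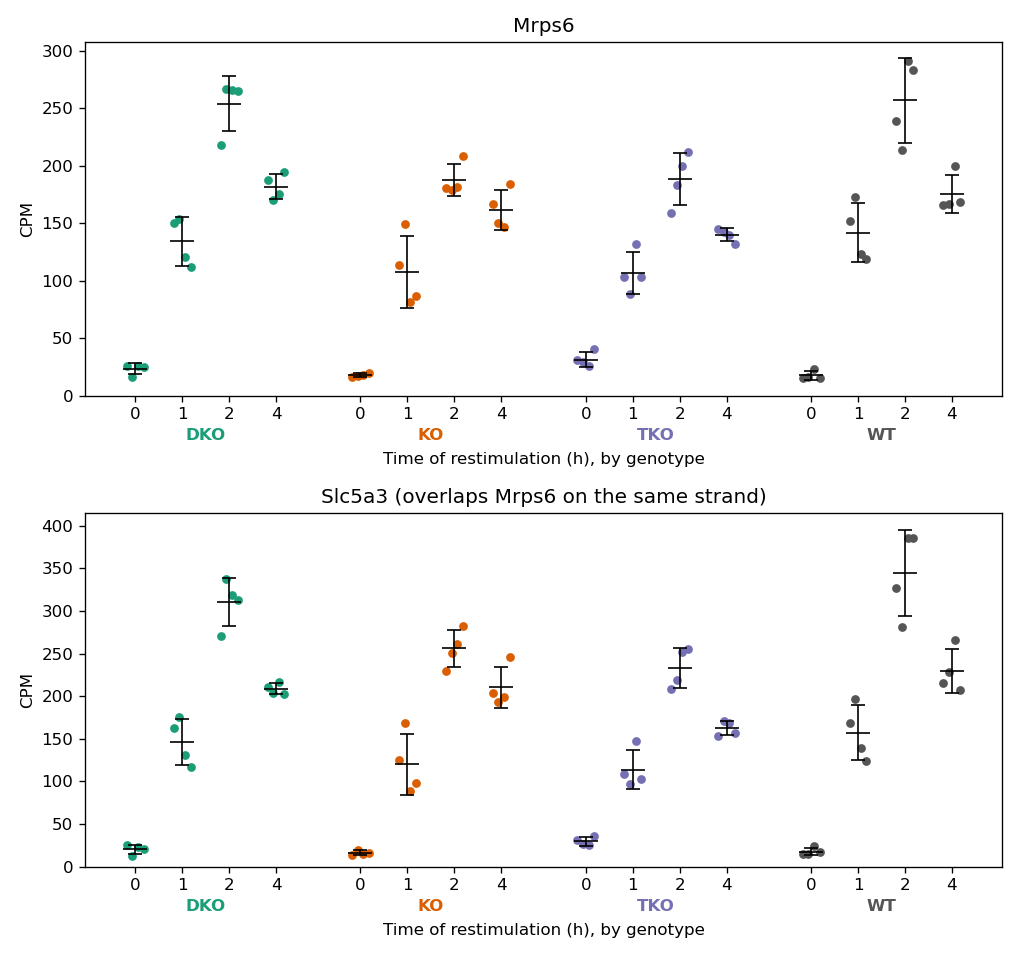
Mrps6 and Slc5a3 in CPM, by genotype and hours of restimulation, with single libraries as points and mean ± SD of 4 libraries as bars. In WT cells both are lowest at 0 h and highest at 2 h, at 257 CPM for Mrps6 and 345 CPM for Slc5a3.

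Overlap with other genes touches 21 members, those sharing exon bases with a gene that had at least 10% as many reads. Of these 11 rose and 2 fell in WT cells at 4 h (median 0.48), and of the other 56 members 32 rose and 3 fell (median 0.56). By the promoter letters printed above, 6 of 7 members with NRF1 letters rose and 1 fell (median 0.69). With YY1 letters 7 of 8 rose (median 0.68), with ETS letters 10 of 23 rose and 2 fell (median 0.36), and with the E-box 3 of 5 rose (median 0.77). Of 32 members with none of the 4, 18 rose and 1 fell (median 0.54). The member with NRF1 letters that fell was Mrpl10. Of all 77 members 43 rose and 5 fell (median 0.53). The differences between these groups of members, some of them small, were not tested. Changes of other genes with the same letters were not counted.

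Other genes of the same system were counted in the same fit, in WT cells. Of cytosolic ribosomal protein genes 29, 66 and 40 of 79 rose and 0, 0 and 1 fell at 1, 2 and 4 h (medians 0.31, 0.58 and 0.44). They were led at 4 h by Rps12 (1.87), Rpl27 (1.77) and Rpl7l1 (1.61). Of mitoribosomal proteins under other symbols 1, 2 and 2 of 7 rose and 0, 2 and 2 fell at 1, 2 and 4 h (medians -0.03, 0.02 and -0.11). Ptcd3, a pentatricopeptide repeat protein of the small subunit, rose by 0.88, 1.65 and 1.40, Gadd45gip1, a large subunit protein, by 0.85 at 4 h, and Dap3, a small subunit GTP-binding protein, fell by 0.51 at 4 h.

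Of mitoribosome assembly factors 3, 4 and 11 of 20 rose and 8, 3 and 0 fell at 1, 2 and 4 h (medians -0.39, 0.09 and 0.49). Noa1, an assembly GTPase, changed by 0.81, 1.82 and 1.70. Fastkd2, an RNA-binding protein, rose by 1.81 and Trub2, a pseudouridine synthase, by 1.30 at 4 h, and Mettl15, an rRNA methyltransferase, fell by 1.20 at 2 h. Of mitochondrial translation factors 2, 4 and 7 of 12 rose and 6, 4 and 3 fell at 1, 2 and 4 h (medians -0.33, -0.16 and 0.35). The recycling factor Mrrf rose by 0.84, 1.42 and 1.34, the elongation factors Gfm1 and Tufm by 0.93 and 0.72 at 4 h, and the release factor Mtrf1 fell by 0.60 at 4 h. Of mitochondrial aminoacyl-tRNA synthetases 3, 6 and 9 of 19 rose and 4, 2 and 2 fell at 1, 2 and 4 h (medians 0.02, 0.08 and 0.43). Yars2, Mars2 and Nars2 rose by 1.90, 1.78 and 1.44 at 4 h, and Cars2 fell by 0.43.

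Of genes for mitochondrial DNA maintenance and transcription 6, 8 and 10 of 16 rose and 0, 2 and 1 fell at 1, 2 and 4 h (medians 0.23, 0.61 and 0.83). Elac2, a tRNA-processing nuclease, rose by 2.13, the helicase Supv3l1 by 1.67 and the elongation factor Tefm by 1.67 at 4 h. Of the mitochondrially encoded mRNAs, which this ribosome translates, 0, 0 and 0 of 7 rose and 0, 0 and 1 fell at 1, 2 and 4 h (medians 0.07, 0.15 and -0.19), and mt-Co1 was the one that fell (-0.46). The other 6 of the 13 such mRNAs were not found by symbol in the deposited table, so their changes could not be given. Of nuclear respiratory chain subunits 0, 15 and 5 of 48 rose and 0, 0 and 7 fell at 1, 2 and 4 h (medians 0.08, 0.26 and -0.04), with Cycs, cytochrome c, at 1.29 and Ndufb10, of complex I, at -0.90 at 4 h. Of regulators 5, 6 and 7 of 10 rose and 2, 1 and 1 fell at 1, 2 and 4 h (medians 0.26, 0.61 and 0.41). Myc, a driver of growth genes, rose by 2.75, 3.01 and 1.86, Pprc1, a coactivator of NRF1, by 1.67, 2.25 and 1.96 and Gabpb1, a GABP subunit, by 1.44 and 1.24 at 1 and 2 h, and Mycn fell by 2.59 at 4 h.

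The knockouts had time courses of their own, each against its own 0 h, and the percentages beside them are the shares of all genes that rose and fell. In DKO cells 14 rose and 2 fell at 1 h (median 0.06, 19.3% and 12.7% of all genes), 43 rose and 3 fell at 2 h (median 0.48, 29.6% and 25.6% of all genes) and 52 rose and 0 fell at 4 h (median 0.66, 28.3% and 26.9% of all genes). In KO cells 10 rose and 1 fell at 1 h (median 0.14, 18.9% and 10.4% of all genes), 43 rose and 1 fell at 2 h (median 0.47, 30.1% and 28.0% of all genes) and 62 rose and 0 fell at 4 h (median 0.81, 33.0% and 27.6% of all genes). In TKO cells 3 rose and 1 fell at 1 h (median 0.07, 13.1% and 9.26% of all genes), 29 rose and 2 fell at 2 h (median 0.34, 24.4% and 22.9% of all genes) and 54 rose and 1 fell at 4 h (median 0.63, 27.2% and 23.1% of all genes). The splits at 1 h turned under upper-quartile scaling, to 9 and 13 higher and lower in DKO, 4 and 12 in KO and 1 and 8 in TKO cells, and under the authors' scaling, to 8 and 12 in DKO, 4 and 6 in KO and 1 and 8 in TKO cells. The authors' scaling also gave 27 and 9 in DKO and 25 and 9 in KO cells at 2 h and 38 and 6 in DKO and 36 and 6 in KO cells at 4 h, and upper-quartile scaling 30 and 9 in DKO, 29 and 8 in KO and 25 and 6 in TKO cells at 2 h. At 4 h, 40 members rose in all 4 genotypes, 9 in 3, 9 in 2, 6 in 1 and 13 in none, where 20.8% of all genes rose in all 4 and 10329 of 16140 in none. Of the 6 members that fell in any genotype, each fell in 1: Mrpl4, Mrpl10, Mrpl14, Mrpl18 and Mrps21 in WT and Mrpl45 in TKO cells. Mrpl38 rose by 2.12 in DKO, 1.89 in KO and 1.63 in TKO cells, against 1.91 in WT cells. Mrpl12 rose by 1.90 in DKO, 2.03 in KO and 1.78 in TKO cells, against 1.51 in WT cells.

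Each knockout was then set against WT at the same time. In DKO cells 1 rose and 0 fell at 0 h (5.35% and 2.3% of all genes), 1 rose and 0 fell at 1 h (5.95% and 2.28% of all genes), 2 rose and 0 fell at 2 h (7.96% and 1.52% of all genes) and 0 rose and 0 fell at 4 h (4.68% and 0.675% of all genes). The calls were Mrpl45 at 0, 1 and 2 h and Mrps35 at 2 h (0.43), and the Mrps35 call was lost in most alternatives. At 0 h the authors' scaling called 10 and 0 higher and lower in DKO and 4 and 0 in KO cells, and 7 were called in DKO cells without WT library 4. At 4 h in DKO cells limma gave 7 higher and 0 lower at an unadjusted p under 0.05, where 13.8% of all genes were higher and 5.43% lower. In KO cells 0 rose and 0 fell at 0 h (1.16% and 0.167% of all genes), 0 rose and 0 fell at 1 h (1.84% and 0.328% of all genes) and 0 rose and 0 fell at 2 h (4.68% and 1.26% of all genes). At an unadjusted p under 0.05 limma gave 1, 1 and 4 higher and 2, 2 and 1 lower in KO cells at these times, where 6.0%, 8.54% and 12.9% of all genes were higher and 4.21%, 5.06% and 7.91% lower.

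At 4 h 12 members rose and 0 fell in KO cells relative to WT, where 21.8% of all genes rose and 11.6% fell. In TKO cells 18 rose and 0 fell, where 27.4% of all genes rose and 16.5% fell. The median member was 0.29 higher in KO and 0.28 higher in TKO cells, and the median gene 0.22 and 0.20 higher, so members stood 0.07 and 0.08 above genes at large. The calls moved with the scaling and the fit. With only the groups compared there were 21 and 0 higher and lower in KO and 30 and 1 in TKO cells. The authors' scaling gave 0 higher and 0 lower in KO and 1 and 3 in TKO cells, median-of-ratios scaling 0 and 0 in KO and 6 and 2 in TKO cells, and upper-quartile scaling 0 and 1 in KO and 1 and 4 in TKO cells. Without KO library 1 at 4 h, 2 members were called, and without TKO library 1 at 4 h, 9. Each of these had the largest share of reads in the 10 top loci within its group.

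Mrpl34, the counterpart of bacterial L34, led at 4 h in both. It had 22.3, 22.3, 18.5 and 13.6 CPM in KO and 24.2, 21.7, 18.9 and 27.1 CPM in TKO libraries, against 11.7, 12.8, 9.60 and 13.3 CPM in WT libraries, and neither knockout overlapped WT. The difference was 0.67 ± 0.21 in KO (limma adjusted p = 0.012) and 0.94 ± 0.21 in TKO cells (limma adjusted p = 0.000245), and the KO call was lost under each other scaling. In KO cells Mrpl19 (0.44), Mrps35 (0.42), Mrps25 (0.40) and Mrpl1 (0.40) followed, all lost under each other scaling. Mrpl19 shares 1962 exon bases with Gcfc2 on the opposite strand, which was higher by 0.55 in KO and 0.73 in TKO cells. Mrps25 shares 4590 with Nr2c2 on the opposite strand, which had 558% as many reads and was higher by 0.40 in KO and 0.42 in TKO cells. How far reads of these pairs were mixed was not tested. In TKO cells Mrps36 (0.64), Mrpl36 (0.60), Mrps17 (0.55) and Mrpl10 (0.54) followed, all lost under the authors' and upper-quartile scalings. Mrps36 had 11.8, 11.2, 9.73 and 9.57 CPM in TKO libraries, against 5.87, 6.16, 6.91 and 8.12 CPM in WT libraries.

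Marker levels also differed from WT at 4 h. B cell markers summed at 4 h to 27.4 to 49.0 CPM in KO and 65.3 to 89.1 CPM in TKO cells, against 13.6 to 26.1 CPM in WT cells. Myeloid markers summed to 43.4 to 63.3 CPM in KO and 55.7 to 67.9 CPM in TKO cells, against 20.96 to 27.6 CPM in WT cells. CD8 markers summed to 13.9 to 51.5 CPM in KO and 21.3 to 30.1 CPM in TKO cells, against 4.92 to 17.5 CPM in WT cells. CD4 T cell markers summed to 1768 to 2121 CPM in KO and 1838 to 2059 CPM in TKO cells, against 1377 to 1438 CPM in WT cells. In DKO cells, where 0 members were called at 4 h, myeloid markers summed to 32.6 to 36.6 CPM and CD4 T cell markers to 1524 to 1966 CPM. Their B cell markers summed to 23.7 to 35.0 CPM and their CD8 markers to 10.2 to 18.7 CPM, both overlapping WT. The part of the markers in the members' differences was not tested.

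**Figure D4:**
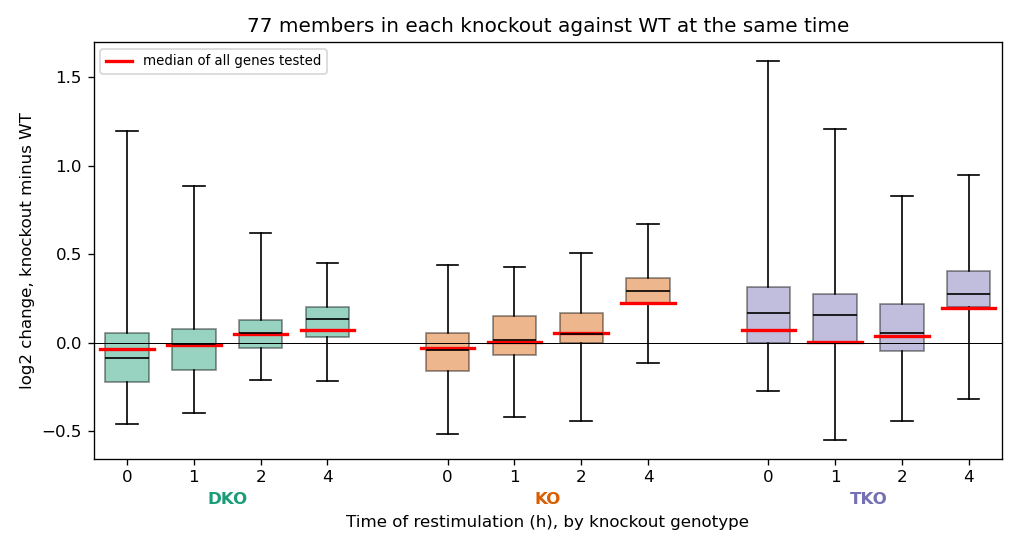
Change of the 77 members in each knockout against WT at the same time on the log2 scale. Boxes span the quartiles, whiskers the full range, and red lines mark the median of all genes tested. At 4 h the member median is 0.29 in KO and 0.28 in TKO cells, and the gene median 0.22 and 0.20.

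In TKO cells before restimulation 13 members were higher and 0 lower than in WT cells, where 19.3% of all genes were higher and 18.2% lower (medians 0.17 and 0.07). Median-of-ratios scaling gave 8 higher and 2 lower, and upper-quartile scaling 6 and 3. Without TKO library 3 at 0 h, 7 were called. The leading ones were Mrpl45 (1.59), Mrps6 (0.83), Mrps18b (0.62), Mrps5 (0.56) and Mrpl1 (0.48). B cell markers at 0 h summed to 354 to 515 CPM in TKO libraries, against 113 to 234 CPM in WT libraries, and myeloid markers to 60.5 to 68.2 CPM, against 34.4 to 51.0 CPM in WT libraries. Their part was not tested.

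At 1 h 8 members were higher and 1 lower in TKO than in WT cells, where 15.8% of all genes were higher and 15.7% lower. Behind Mrpl45 (1.21) came Mrpl52 (0.82), with 9.90, 11.7, 9.88 and 9.95 CPM in TKO libraries, against 5.40, 4.19, 8.11 and 6.21 CPM in WT libraries. These groups did not overlap. Mrps36 (0.46), Mrps21 (0.42) and Mrpl1 (0.37) followed, each lost under the authors' scaling. That scaling gave 2 and 9 higher and lower, the fit of only the groups compared 5 and 0, and 4 were called without WT library 2 at 1 h and 5 without TKO library 4. B cell markers at 1 h summed to 254 to 391 CPM in TKO libraries, against 99.1 to 183 CPM in WT libraries, and myeloid markers to 59.9 to 66.6 CPM in TKO libraries, against 34.4 to 43.8 CPM in WT libraries, and their part was not tested. At 2 h 2 were higher and 1 lower, where 20.1% of all genes were higher and 16.5% lower, namely Mrpl45 and Mrpl10 (0.40) higher and Mrps6 lower.

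Mrpl45 stood out in the cells floxed for both Roquin genes. It encodes a protein near the polypeptide exit that helps to hold the ribosome at the inner membrane, and the gene lies on chromosome 11 at 97315716 to 97329920 on the plus strand (GRCm38), with no exon-sharing partner that had reads. At 0 h it had 42.3, 31.3, 45.9 and 28.2 CPM in DKO and 48.7, 48.6, 44.8 and 48.1 CPM in TKO libraries, against 17.2, 14.3, 15.4 and 16.2 CPM in WT libraries. Every DKO and TKO library was above every WT library. The difference from WT was 1.20 ± 0.14 in DKO (limma adjusted p = 3.05e-09) and 1.59 ± 0.14 in TKO cells (limma adjusted p = 6.95e-14). It was 0.89 and 0.62 in DKO cells at 1 and 2 h and 1.21 and 0.83 in TKO cells. At 4 h it was 0.25 ± 0.14 in DKO, not called, and 0.45 ± 0.14 in TKO cells.

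In KO cells Mrpl45 had 22.4, 19.96, 17.6 and 26.1 CPM at 0 h. All 4 were above the WT libraries, but the difference of 0.44 ± 0.14 was not called (limma adjusted p = 0.107). TKO cells were higher than KO cells by 1.15 ± 0.14 at 0 h (limma adjusted p = 1.04e-08), by 0.78 at 1 h and by 0.46 at 2 h. DKO cells were higher than KO cells by 0.76 at 0 h, and TKO cells were higher than DKO cells by 0.39.

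The gap was narrower at 4 h. Mrpl45 had 29.7, 30.5, 30.9 and 28.6 CPM in DKO, 33.2, 30.4, 30.4 and 28.6 CPM in KO and 37.1, 34.2, 30.8 and 36.3 CPM in TKO libraries at 4 h, against 21.5, 26.0, 25.5 and 28.2 CPM in WT libraries. At 4 h against 0 h it fell by 0.46 ± 0.14 in TKO cells (limma adjusted p = 0.00348) and rose by 0.52 in KO and 0.68 in WT cells. In DKO cells the change was -0.27 ± 0.14 (limma adjusted p = 0.0852). The response differed from that of WT by -0.95 ± 0.19 in DKO (limma adjusted p = 0.00546) and -1.14 ± 0.19 in TKO cells (limma adjusted p = 4.98e-05) at 4 h, and by -0.76 in TKO cells at 2 h. Without the 16 libraries with the largest share of reads in the 10 top loci, 1 per group, the DKO value was -0.79 and not called. The TKO call at 2 h was lost without them too, and with only the groups compared.

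**Figure D5:**
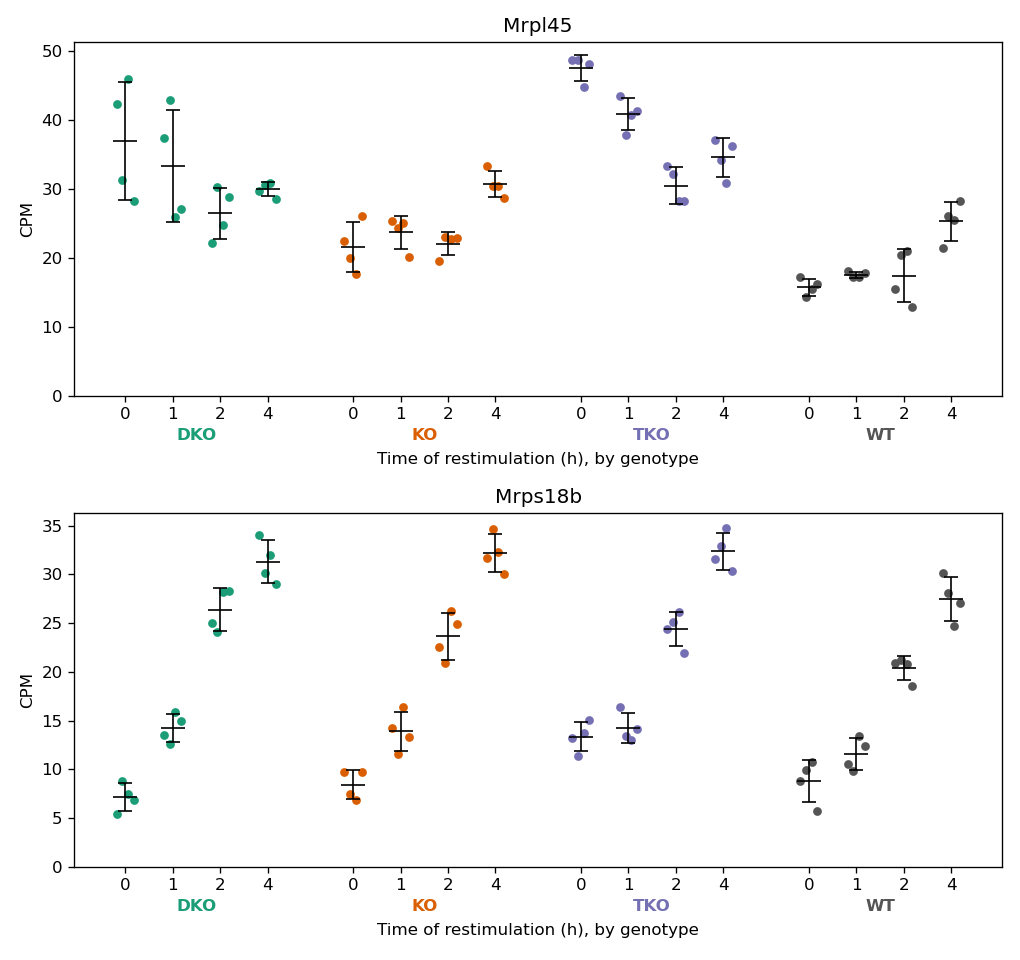
Mrpl45 and Mrps18b in CPM, by genotype and hours of restimulation, with single libraries as points and mean ± SD of 4 libraries as bars. Mrpl45 has a mean of 36.9 CPM in DKO and 47.5 CPM in TKO cells at 0 h, against 15.7 CPM in WT cells, and the means lie closer together at 4 h.

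Mrps6 started higher and peaked lower in TKO cells. At 0 h it had 30.9, 29.0, 25.5 and 40.3 CPM in TKO libraries, against 15.7, 16.2, 23.4 and 15.3 CPM in WT libraries. All TKO libraries were above all WT libraries, a difference of 0.83 ± 0.15 (limma adjusted p = 2.40e-05). At 2 h it had 159, 183, 199.9 and 212 CPM in TKO libraries, against 239, 214, 291 and 283 CPM in WT libraries. All TKO libraries were below all WT libraries, a difference of -0.44 ± 0.15 (limma adjusted p = 0.0178), which was lost without TKO library 1 or WT library 3 or 4 at 2 h. The response differed from that of WT by -1.24, -1.27 and -1.15 at 1, 2 and 4 h (SE 0.21 each), the last with limma adjusted p = 0.000235. Slc5a3 gave -1.22, -1.32 and -1.25 for the same differences and was 0.76 higher in TKO than in WT cells at 0 h.

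Over the 9 response differences between a knockout and WT, 9 calls fell on members. There were 42 under the authors' scaling, 5 with only the groups compared and 14 without WT library 4 at 0 h. Besides Mrpl45 and Mrps6, the 9 calls were on Mrps5 in TKO cells at 2 h (-0.79 ± 0.22), Mrps26 in TKO cells at 4 h (0.78 ± 0.23) and Mrps15 in KO cells at 4 h (0.61 ± 0.17), each lost in several alternatives. At 1, 2 and 4 h in TKO cells 0.161%, 2.24% and 4.78% of all genes had a higher and 0.576%, 2.31% and 1.86% a lower response than in WT cells. In KO cells the shares were 0.0186%, 0.173% and 1.95% higher and 0.0062%, 0.031% and 0.242% lower. In DKO cells they were 0.062%, 0.198% and 0.489% higher and 0.0434%, 0.136% and 0.335% lower.

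Mrps18b was higher in unstimulated TKO cells than in each other genotype. It had 13.2, 11.4, 13.7 and 15.1 CPM in TKO libraries, against 5.40, 8.81, 7.49 and 6.82 CPM in DKO, 9.68, 7.49, 6.85 and 9.71 CPM in KO and 8.84, 9.93, 10.7 and 5.75 CPM in WT libraries. Every TKO library was above every other. TKO cells were higher than DKO cells by 0.91 ± 0.14, than KO cells by 0.67 and than WT cells by 0.62 (limma adjusted p = 0.000294), and the last was lost when only these 2 groups were fitted. The departure of TKO from the sum of the DKO and KO differences was 0.95 ± 0.19 (limma adjusted p = 0.00547), where 0.613% of all genes had a positive and 0.118% a negative departure. It was the only member called at 0, 1, 2 or 4 h in that contrast. Under the authors' scaling it was 0.48 and without the 16 libraries named above 0.73, neither called. Mrps18b shares 638 exon bases with Gm16279 on the opposite strand, which had 9.08% as many reads. The gene lies on chromosome 17 at 35910379 to 35916389 on the minus strand (GRCm38). By these GENCODE coordinates its RefSeq promoter window lies wholly before the gene's start.

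TKO cells were also set against DKO and KO cells. At 0 h 9 rose and 0 fell relative to DKO cells (8.72% and 6.06% of all genes) and 7 rose and 0 fell relative to KO cells (11.4% and 8.88% of all genes). B cell markers at 0 h summed to 354 to 515 CPM in TKO libraries, against 186 to 271 CPM in DKO and 204 to 305 CPM in KO libraries, without overlap, and their part was not tested. Over the 12 comparisons between knockouts 24 calls were made, against 13 under the authors' scaling, 13 with only the groups compared, 14 without the 16 libraries named above and 14 to 37 when 1 library was left out. Behind Mrps18b, the leading ones relative to DKO were Mrpl38 (0.74) and Mrps5 (0.47), and relative to KO Mrpl45 was followed by Mrps6 (0.80). At 1 h 3 rose and 0 fell relative to DKO cells (2.54% and 1.57% of all genes) and 3 rose and 0 fell relative to KO cells (5.74% and 3.9% of all genes). Mrps25 (0.46) and Mrpl1 (0.34) led relative to DKO, both lost in most alternatives, and Mrpl45, Mrpl52 (0.58) and Mrpl1 (0.55) relative to KO. At 2 h 0 rose and 0 fell relative to DKO cells (3.35% and 3.42% of all genes) and 1 rose and 0 fell relative to KO cells (6.98% and 4.52% of all genes), and at 4 h 0 rose and 0 fell relative to DKO cells (7.47% and 4.94% of all genes) and 0 rose and 0 fell relative to KO cells (1.96% and 0.644% of all genes). At an unadjusted p under 0.05 limma gave 5 higher and 1 lower relative to DKO and 0 and 2 relative to KO at 4 h, where 16.3% and 11.3% of all genes were higher and lower relative to DKO and 7.63% and 5.17% relative to KO.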

How the data were processed

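The deposited table, on GRCm38 per the submitters' processing notes, lists for each of 16 groups the normalized counts of 4 libraries per gene, made by the authors. The deposited group means (a signal), log2 fold changes and p-values as FDR, named per the file headers, were not used. No source used here names the aligner or counter. The value of 1 read in each library was recovered from its low values, all of them whole within 0.1 read, and gave 5369873 to 11666566 reads per library (median 7720298). Genes with at least 10 reads at median depth in at least 4 libraries were kept (16140 of 23134).

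Values were rescaled by trimmed means of M values (factors 0.772 to 1.24). The log2 of value + 1 was fitted with limma 3.58.1 in R 4.3.3 (trend and robust moderation, 1 mean per group, 64 libraries, 48 residual degrees of freedom), with Benjamini-Hochberg adjustment over 16140 genes. A log2 change on this scale understates that of low genes. Members, lists, splits and tests were chosen with earlier results of these data known. Members were named by size of change among those called without overlap (up to 8 per direction for WT restimulation, up to 5 for each knockout against WT, up to 3 for other contrasts, without the overlap condition for response differences and non-additivity). Mrpl12, Mrps12, Mrps30, Mrps36, the S18 counterparts and the extremes of level were always named, related genes come from the up to 3 largest per list and direction by the same rule, 1 such gene is not reported here, and members named outside this rule were chosen after their values were seen. Exons came from GENCODE vM21, where 76 members matched by ID and 1 by symbol, and promoters from RefSeq. The fit was also run on simulated counts with noise drawn independently for each gene and library. That run cannot show how a shift shared by many genes of a library affects the calls. The alternatives were the authors', median-of-ratios and upper-quartile scaling, no filter, other pseudocounts, limma voom on the recovered reads, a fit of the compared groups only and each library left out.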

Additional observations from a re-analysis of the deposited data

Results flagged for a closer look

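The summed members and 7 single genes were checked in 16 groups of 4 libraries for a library far from the other 3. Of these 128 checks 11 found one, and chance flags about 1 in 20. For Mrps6 the libraries had 16.5 CPM in DKO at 0 h, 218 CPM in DKO at 2 h, 208 CPM in KO at 2 h, 23.4 CPM in WT at 0 h and 199.7 CPM in WT at 4 h. For Mrpl45 they had 19.6 CPM in KO at 2 h and 44.8 CPM in TKO at 0 h. The others were Mrps18b with 18.6 CPM in WT at 2 h, Mrpl38 with 6.22 CPM in WT at 1 h, Mrpl50 with 57.2 CPM in KO at 4 h and Mrpl14 with 9.49 CPM in TKO at 1 h.

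By a test of the difference itself in limma, the restimulation response differed between a knockout and WT in 9 cases. For Mrpl45 the difference was -0.95 on the log2 scale in DKO cells at 4 h, and -0.76 and -1.14 in TKO cells at 2 and 4 h. For Mrps6 it was -1.24, -1.27 and -1.15 in TKO cells at 1, 2 and 4 h. For Mrps5 it was -0.79 in TKO cells at 2 h, for Mrps26 0.78 in TKO cells at 4 h and for Mrps15 0.61 in KO cells at 4 h.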

How the results depend on the processing

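No paired analysis was possible because the deposited lists carry no replicate numbers. The planned edgeR and DESeq2 alternatives were not run, and limma voom on the recovered reads was run in their place. The 77 named changes are pairs of a gene and a contrast, and not the 77 members. They were picked among called changes, and the alternatives refit the same libraries, so a kept direction adds little. All kept their direction in 1389 alternative values, of which 1212 kept the call and 177 lost it. Pseudocounts of 0.5 and 5 ended no such call. Depth limits low members such as Mrpl23, and a missed call does not show that a gene did not change. For the counts below the cause was not tested, and leaving out libraries also lowers the number of samples. Brackets hold the count as reported.

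In WT cells at 1 h, 21 rose under the authors', 4 under upper-quartile scaling and 5 with only the groups compared (reported 12), and 5 fell under median-of-ratios, 19 under upper-quartile, 1 with only the groups compared and 1 without the 16 libraries of largest top-locus share, an alternative added after seeing the data (reported 2). At 2 h, 6, 12 and 1 fell under median-of-ratios, upper-quartile and only the groups compared (reported 3). At 4 h, 2 fell under the authors' scaling and 3 without the 16 libraries (reported 5). At 2 h against 1 h, 3 fell under the authors', 2 under upper-quartile and 0 with only the groups compared (reported 1). At 4 h against 2 h, 11 rose under median-of-ratios and 22 under upper-quartile scaling (reported 6), and 1 fell under the authors', median-of-ratios, no filter and only the groups compared and 0 under upper-quartile (reported 2). In TKO cells at 1 h against 0 h, 9 were called under the authors' and upper-quartile scaling and 1 with only the groups compared (reported 4).

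Against WT, the authors' scaling called 10 in DKO and 4 in KO cells at 0 h (reported 1 and 0), 3 in DKO at 1 h (reported 1), 1 in DKO and 1 in KO at 2 h, 0 in KO and 4 in TKO at 4 h (reported 12 and 18). Median-of-ratios called 1 in DKO and 1 in KO at 2 h, 0 in KO and 8 in TKO at 4 h. Upper-quartile called 1 in DKO and 1 in KO at 2 h, 1 in KO and 5 in TKO at 4 h. No filter called 1 in DKO at 2 h. With only the groups compared there were 4 in TKO at 0 h (reported 13), 5 in TKO at 1 h (reported 9), 0 in DKO at 2 h (reported 2), and 2 in DKO, 21 in KO and 31 in TKO at 4 h. Without the 16 libraries there were 1 in DKO and 1 in KO at 2 h and 3 in KO at 4 h.

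Response differences numbered 42 under the authors' scaling and 5 with only the groups compared (reported 9). Differences between knockouts numbered 13 under the authors' scaling, 13 with only the groups compared and 14 without the 16 libraries (reported 24). Non-additivity fell to 0 with only the groups compared and without the 16 libraries (reported 1).

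Leaving out each library in turn gave, in WT cells, 7 to 17 higher and 2 to 6 lower at 1 h, 30 to 40 and 2 to 8 at 2 h, 36 to 47 and 1 to 6 at 4 h, 34 to 42 and 0 to 2 at 2 h against 1 h, and 2 to 5 and 1 to 5 at 4 h against 2 h. TKO at 1 h against 0 h gave 3 to 7. Against WT, DKO gave 1 to 7 at 0 h, 1 to 2 at 1 h, 1 to 2 at 2 h and 0 to 1 at 4 h, KO 0 to 1 at 1 h, 0 to 2 at 2 h and 2 to 12 at 4 h, and TKO 7 to 17 at 0 h, 4 to 8 at 1 h, 1 to 5 at 2 h and 9 to 25 at 4 h. Response differences ranged from 7 to 14, those between knockouts from 14 to 37 and non-additivity from 1 to 6. Without WT library 4 at 0 h, 7 members rose and 6 fell at 1 h and 8 fell at 2 h in WT, 7 were called in DKO at 0 h, and 14 response differences and 6 non-additive calls were made. Without WT library 3 at 0 h, 1 member fell at 4 h in WT. Against WT at 4 h, KO had 2 calls without its own library 1 and 7, 6 and 6 without WT library 1, 2 and 3, and TKO had 9 without its own library 1. TKO had 7 calls at 0 h without its library 3, and at 1 h 5 without its library 4 and 4 without WT library 2. Calls between knockouts numbered 37 without TKO library 2 and 14 without TKO library 4 at 0 h.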
